A study of Mus musculus with 16 samples.

Results

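The CpGs described here are 2 positions of a mouse LINE1 bisulfite amplicon that lie apart from every other CpG of the amplicon. A site is a CpG on one strand of the genome, and a call is one read that shows that CpG as methylated or unmethylated. Sites with at least 10 calls in all 16 libraries were joined into runs on the same chromosome and strand wherever the gap was at most 200 bp. Runs of the most common span between their first and last CpG were kept, which were 516 of 753 runs. Position within such a run is given as the offset in bp from its first CpG, counted along the strand of the calls. There were 14 offsets that occurred in at least 30 runs, called template offsets here, at 0, 10, 17, 21, 26, 41, 45, 57, 78, 82, 95, 102 and 105 bp and at the last CpG of the run. Not every kept run holds each of them, and offset 10 was present in only 156 runs. The isolated CpGs are the one at offset 57, called the middle CpG here, and that last one, called the end CpG, which lies 85 bp downstream of the middle CpG. They comprise 1007 of the 10185 sites with enough calls, 491 middle CpGs and 516 end CpGs, and 491 runs hold both. The rule uses positions and numbers of calls but no methylation values, although earlier results of these data were known when it was set.

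The label of isolated CpGs was checked against the positions. The middle CpG has its nearest template CpG 12 bp upstream and the next one 21 bp downstream, at offsets 45 and 78, and the nearest listed CpG was exactly 12 bp away at 438 of 491 sites. The end CpG has its nearest template CpG 37 bp upstream, at offset 105, and the nearest listed CpG was exactly 37 bp away at 493 of 516 sites. In 3 runs the middle CpG and in 2 runs the end CpG had an additional CpG within 10 bp. What lies downstream of the end CpG is not part of the measurement. No genome of the build was used here, and therefore the letters around these CpGs are not shown. Of the middle CpGs, 132 lay within the span of a protein-coding or lncRNA gene and 64 lay on the X chromosome, and of the end CpGs 137 and 72 did.

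LINE1 elements are retrotransposons that occupy a large part of the mouse genome, and their CpGs are commonly used to follow methylation at many loci at once. When DNA is replicated, each methylated CpG becomes hemimethylated, and the maintenance methyltransferase DNMT1 restores the mark on the new strand. UHRF1 recognises hemimethylated CpGs through its SRA domain, ubiquitinates histone H3 through its RING domain, and so helps to bring DNMT1 to replicated DNA. DNMT1 is a processive enzyme that can modify neighbouring CpGs along one stretch of DNA. The de novo enzymes DNMT3A and DNMT3B can add methylation to CpGs that carried none.

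The amplicon was sequenced after bisulfite treatment of genomic DNA from mouse embryonic stem cells with the J1 (129S4/SvJae) strain background, grown in serum with 2i and LIF. The 4 genotypes were Uhrf1 KO, the point mutants Uhrf1 H730A and Uhrf1 F46A, and the wild-type cells wtJ1, with 4 libraries each. The title of the series concerns the part that the UBL domain plays in the ubiquitin ligase activity of UHRF1, and as background H730A lies in the RING domain and F46A in the ubiquitin-like (UBL) domain. The series describes biological quadruplicates, but neither the number of clones nor the construction of the cell lines is stated in the labels, so p-values measure the spread between these libraries.

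Each library held between 998982 and 1287040 calls. The middle CpGs received 47171 to 59484 calls per library, with a median of 62 to 79 per site, and the end CpGs received 46099 to 58304 calls, with a median of 58 to 73 per site. The 10 deepest runs held 12.7% and the 100 deepest runs 54.6% of these calls. As PCR reads carry no molecular identifiers here, counting error understates the true error. In chi-square tests of coverage and methylated calls at the isolated CpGs, and of methylated calls over the template offsets, the first and second wtJ1 libraries agreed within sampling noise (p from 0.0528 to 0.926), and so did the third and the fourth (p from 0.0903 to 0.470). Every other pair of libraries within a genotype differed in at least 1 of these measures at an unadjusted p under 0.05. Several measures were tried per pair, so some pairs would differ by chance. Uhrf1 KO replicates 3 and 4 differed only in methylated calls at the middle CpG (chi-square p = 0.0372), so the line between them and the wtJ1 pairs is not sharp. Each of the 2 wtJ1 pairs was therefore averaged and counted as 1 sample in means and SDs (n = 2 for wtJ1), while tests used all 4 libraries. With 2 wtJ1 samples the smallest exact p against 4 mutant libraries would be 0.133.

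At the middle CpG most methylation was lost in all 3 mutant genotypes, and the knockout had the lowest level of the 3. The methylation level, which is the share of methylated calls summed over all sites of that position, was 2.50, 2.43, 2.56 and 2.49% in the 4 Uhrf1 KO libraries. It was 7.19, 7.67, 10.3 and 6.73% in the H730A libraries and 5.68, 4.54, 3.76 and 6.79% in the F46A libraries, against 32.4, 32.4, 33.5 and 33.1% in the wtJ1 libraries. The mutant genotypes lay far below wtJ1, with no overlap, and the replicates spread most in H730A, where replicate 3 was the highest, and in F46A. The means were 2.49% ± 0.0521 in Uhrf1 KO, 7.96% ± 1.57 in H730A cells and 5.19% ± 1.33 in F46A (SD, n = 4 each), against 32.8% ± 0.607 in wtJ1 (SD, n = 2). Relative to wtJ1, 7.59% of the level was kept in Uhrf1 KO, 24.2% in H730A cells and 15.8% in F46A.

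H730A again had the most methylation of the mutants at the end CpG, but F46A and the knockout overlapped. Levels were 2.59, 2.83, 2.77 and 2.73% in Uhrf1 KO, 4.28, 4.35, 6.42 and 3.80% in H730A, and 2.76, 2.41, 2.34 and 3.03% in F46A, against 27.01, 26.6, 27.7 and 27.2% in wtJ1. The F46A libraries enclosed the range of the Uhrf1 KO libraries, whereas every H730A library lay above both. The means were 2.73% ± 0.102 in Uhrf1 KO, 4.71% ± 1.16 in H730A cells and 2.64% ± 0.322 in F46A (SD, n = 4 each), against 27.1% ± 0.489 in wtJ1 (SD, n = 2). The share of the wtJ1 level that was kept was 10.1% in Uhrf1 KO, 17.4% in H730A cells and 9.72% in F46A. Calls outside CpG context are not in these tables, so the rate of incomplete bisulfite conversion, which would add to levels near 2%, could not be estimated. In the same Uhrf1 KO libraries the mean level was 0.929% at offset 26 and 1.08% at offset 0. The part of incomplete conversion in the lowest levels was not tested.

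**Figure D1:**
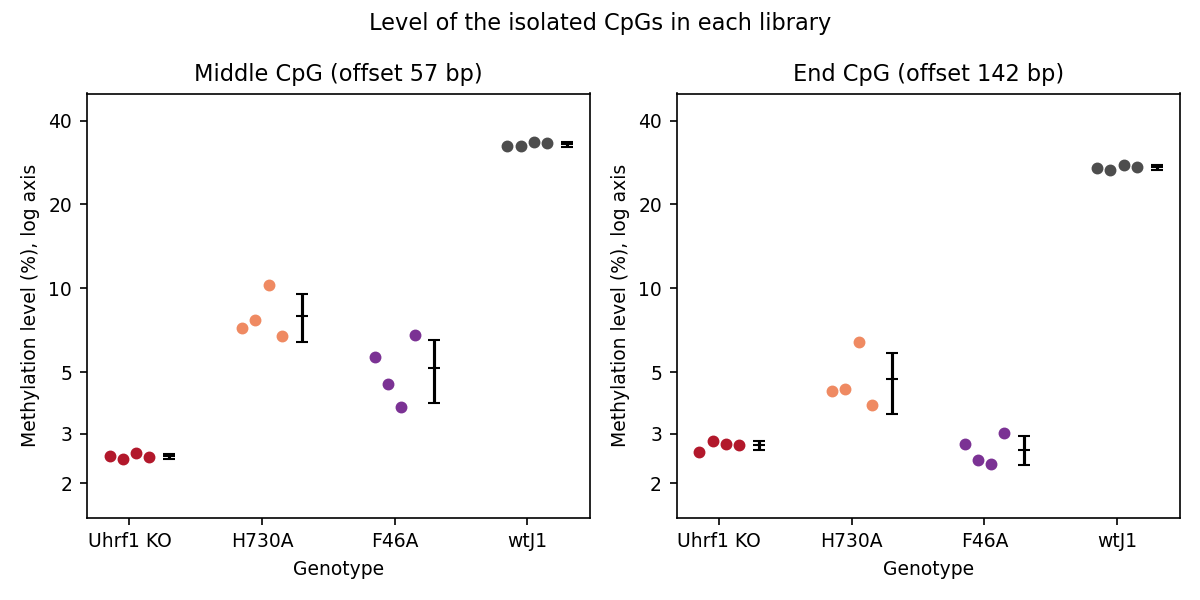
Methylation level (%, log axis) of the isolated CpGs in each of the 16 libraries, by genotype, at the middle CpG (left) and the end CpG (right); points are libraries in replicate order, and the bars give mean ± SD (n = 4, for wtJ1 n = 2). At the middle CpG the F46A libraries (3.76 to 6.79%) lie above the Uhrf1 KO libraries (2.43 to 2.56%), and at the end CpG the F46A libraries (2.34 to 3.03%) overlap the Uhrf1 KO libraries (2.59 to 2.83%).

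The comparison with wtJ1 asks how far methylation at these CpGs differs when UHRF1 is absent or altered. At the middle CpG the difference was -30.3 percentage points in Uhrf1 KO (95% interval -31.0 to -29.8), -24.9 points in H730A (-26.7 to -22.2) and -27.7 points in F46A (-29.7 to -25.6). It was -24.4 points in Uhrf1 KO (-25.1 to -23.7), -22.4 points in H730A (-23.9 to -20.1) and -24.5 points in F46A (-25.4 to -23.5) at the end CpG. All 6 differences had an exact two-sided permutation p of 0.0286, the smallest that 4 against 4 allows, and an adjusted p of 0.0286 over the 14 template offsets. In each of the 3 comparisons all 14 template offsets were lower, that is 100% of them, so that passing this test did not set the isolated CpGs apart.

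Between mutants, H730A was higher than Uhrf1 KO at both isolated CpGs, and more so at the middle CpG. The difference was 5.47 points at the middle CpG (95% interval 4.17 to 7.82), a 3.19-fold higher level, and 1.98 points at the end CpG (0.972 to 3.83), a 1.73-fold higher level. Both differences had 0.0286 as exact permutation p and 0.0400 as adjusted p, in a comparison in which 9 of 14 template offsets, 64.3%, were higher and 1 (7.14%) was lower. Without H730A replicate 3 the difference at the end CpG was 1.41 points.

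F46A was 2.70 points higher than Uhrf1 KO at the middle CpG (95% interval 1.20 to 4.36), a 2.08-fold difference in which all 4 F46A libraries exceeded all 4 Uhrf1 KO libraries. Its exact permutation p was 0.0286, but the adjusted p was 0.100. In this comparison 0 of 14 template offsets, 0%, passed the adjustment and 4 had an unadjusted p of 0.0286, while at least 8 offsets at that p are needed for any to pass. limma on logit levels, which pools the spread over offsets, called 5 of 14 offsets higher, the middle CpG among them (adjusted p = 3.35e-06). The offsets share reads and libraries, and limma takes a common spread for both genotypes, so its p-values may be too small. At the end CpG the difference was -0.0907 points (95% interval -0.487 to 0.445, exact permutation p = 0.629, adjusted p = 0.677), which does not show that the levels are equal but bounds the difference within about these limits. Leaving out F46A replicate 4 or F46A replicate 3 gave -0.223 or 0.00835 points.

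The point mutants were compared with each other as well, F46A against H730A. F46A was lower by 2.77 points at the middle CpG (95% interval -6.49 to 0.0595, exact permutation p = 0.0571, adjusted p = 0.0889), where F46A replicate 4 lay within the range of H730A. F46A was below every H730A library at the end CpG, with a difference of -2.07 points (-4.08 to -0.765, exact permutation p = 0.0286, adjusted p = 0.0571). Of the 14 template offsets 0% passed the adjustment, and 7 were lower at an unadjusted p under 0.05. With limma, under the limit given above, 8 offsets passed, including both isolated CpGs. The limma adjusted p was 0.00795 at the middle CpG and 0.00104 at the end CpG.

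The 2 isolated CpGs were next compared within each library, through the log2 ratio of the level at the middle CpG to that at the end CpG, from which a library-wide factor drops out. The ratio was -0.05, -0.22, -0.11 and -0.13 in the Uhrf1 KO libraries, 0.75, 0.82, 0.68 and 0.82 in the H730A libraries and 1.04, 0.91, 0.68 and 1.16 in the F46A libraries, against 0.26, 0.29, 0.27 and 0.28 in the wtJ1 libraries. The middle CpG was thus the more methylated of the pair in wtJ1 and in both point mutants, and the less methylated one in all 4 knockout libraries. The ratio was lower by 0.40 in Uhrf1 KO than in wtJ1 (difference -0.40, 95% interval -0.50 to -0.32). It was higher than in wtJ1 by 0.49 in H730A (0.39 to 0.56) and by 0.67 in F46A (0.40 to 0.90). Each of these 3 differences had an exact permutation p and an adjusted p of 0.0286.

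Against Uhrf1 KO the ratio was higher by 0.90 in H730A (95% interval 0.73 to 1.04) and by 1.08 in F46A (0.74 to 1.38), with 0.0286 as exact permutation p and an adjusted p of 0.0429 in both comparisons. These 2 comparisons share the knockout libraries. F46A differed from H730A by 0.18 (-0.14 to 0.49), which was within the spread of the libraries (exact permutation and adjusted p = 0.143 each). The comparison with the knockout had the same direction on the scale of percentage points: the middle CpG exceeded the end CpG by -0.234 points in Uhrf1 KO, 3.25 points in H730A, 2.56 points in F46A and 5.71 points in wtJ1. The comparison of the point mutants with wtJ1 turned round on that scale, with differences of -2.46 points in H730A and -3.16 points in F46A.

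**Figure D2:**
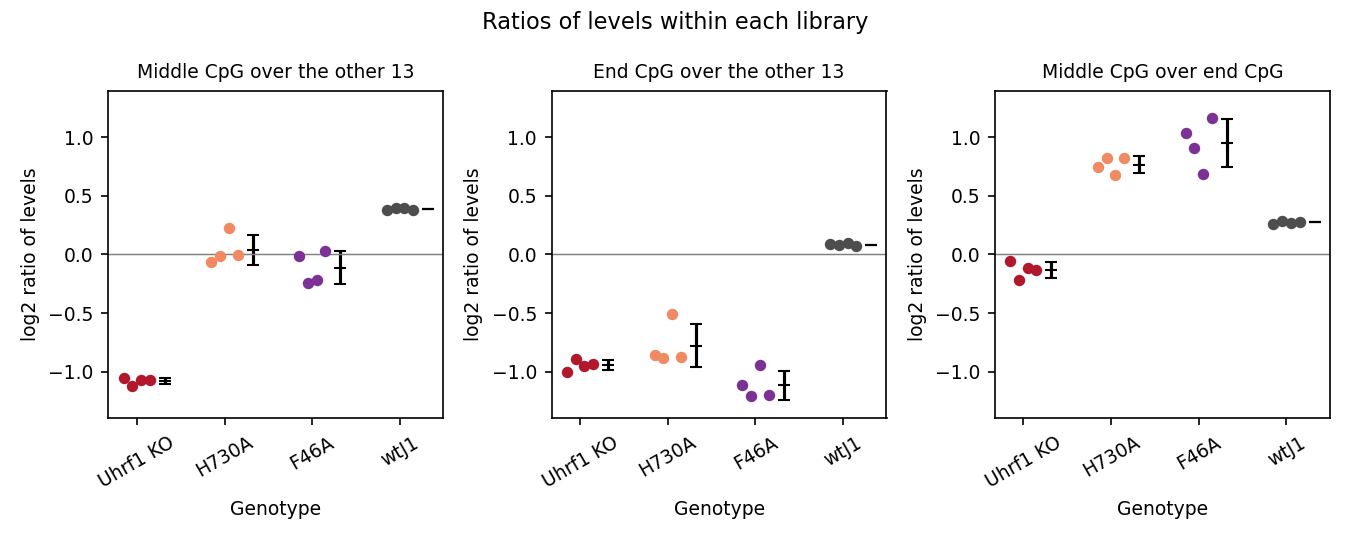
log2 ratio of levels within each library, by genotype: the middle CpG over the other 13 template offsets (left), the end CpG over the other 13 (middle) and the middle CpG over the end CpG (right); points are libraries, bars give mean ± SD (n = 4, for wtJ1 n = 2), and the grey line marks equal levels. In the right panel the Uhrf1 KO libraries lie between -0.22 and -0.05, the H730A and F46A libraries between 0.68 and 1.16.

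Compared with the remainder of the amplicon, both isolated CpGs lost a larger share of their methylation than the average CpG. The other 13 template offsets kept 21.0% of the wtJ1 level in Uhrf1 KO, 30.6% in H730A cells and 22.1% in F46A when the middle CpG was set aside, and 20.5, 31.1 and 22.5% in the same order when the end CpG was set aside. The log2 ratio of the middle CpG to these others was -1.08 ± 0.03 in Uhrf1 KO, 0.04 ± 0.13 in H730A cells and -0.11 ± 0.14 in F46A (SD, n = 4 each), against 0.39 in both wtJ1 pairs. It was therefore 1.47 lower in Uhrf1 KO than in wtJ1 (difference -1.47, adjusted p = 0.0286), 0.35 lower in H730A (-0.35, adjusted p = 0.0444) and 0.50 lower in F46A (-0.50, adjusted p = 0.05, which is at the threshold; exact permutation tests, each p = 0.0286).

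The ratio of the end CpG to the others was -0.95 ± 0.04 in Uhrf1 KO, -0.78 ± 0.18 in H730A cells and -1.12 ± 0.12 in F46A (SD, n = 4 each), against 0.08 in both wtJ1 pairs. The differences from wtJ1 were -1.03, -0.86 and -1.20, with adjusted p of 0.0286, 0.0444 and 0.05 in exact permutation tests. The share of template offsets that fell relative to the others in the same test was 57.1% in Uhrf1 KO, where the other 42.9% rose. It was 28.6% in H730A, where 35.7% rose, and 35.7% in F46A, where 21.4% rose. The calls in F46A lie at the threshold, and under 5 alternative settings each of them misses it with nearly the same values.

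Relative to the knockout, the middle CpG rose against the other offsets, by 1.12 in H730A (adjusted p = 0.0286) and by 0.97 in F46A (adjusted p = 0.0400, exact permutation tests). In these comparisons 57.1% of the template offsets rose and 42.9% fell relative to the others in H730A, and 35.7% rose and 35.7% fell in F46A. The end CpG differed by 0.17 in H730A (adjusted p = 0.0286), but by -0.727 points when the difference from the others was taken in percentage points and by 0.07 without H730A replicate 3, so no direction can be given. In F46A the difference at the end CpG was -0.17 (exact permutation p = 0.0857, adjusted p = 0.109). F46A against H730A gave -0.15 at the middle CpG (adjusted p = 0.246) and -0.34 at the end CpG (exact permutation p = 0.0286, adjusted p = 0.0667). In that comparison 0% of the template offsets passed.

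The shares kept are set here beside the distance to other template CpGs, as a description. Whether distance plays a part was not tested. In Uhrf1 KO, 2 CpGs kept less of the wtJ1 level than the middle CpG, namely offset 0 with 4.65% and offset 26 with 5.40%. Offset 26 has a neighbour 5 bp away, while the neighbour of offset 0, at offset 10, was present in only 156 of 516 runs. Offset 78, which has a neighbour 4 bp away, kept 8.30%, and offset 105 kept 9.52%. The closest neighbour of the middle CpG, at offset 45, kept 40.7% in Uhrf1 KO, the highest share of the 14. In H730A and in F46A the end CpG kept the lowest share of all 14 template offsets, by mean levels. In F46A its 9.72% was close to the 11.3% of offset 0 and the 11.8% of offset 78. The F46A libraries overlapped in level between the end CpG and each of these offsets, and the order of shares was not tested. The nearest CpG to the end CpG, at offset 105, kept 43.4% in H730A, the highest share there, and 22.3% in F46A. Across the 14 offsets the rank correlation between the distance to the nearest template CpG and the share kept was -0.49 in Uhrf1 KO, -0.21 in H730A cells and -0.60 in F46A. These values describe positions that share reads and a sequence, and only 2 of them lie more than 10 bp from another template CpG. Offset 0 counts here as 10 bp from its neighbour, which was present in only 156 runs.

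By level rather than by share kept, the middle CpG ranked 11 of 14 in Uhrf1 KO, 6 in H730A, 7 in F46A and 3 in wtJ1. The end CpG ranked 9 in Uhrf1 KO, 13 in H730A, 12 in F46A and 6 in wtJ1. Several neighbours in these orders had overlapping libraries, such as the middle CpG and offset 17 in Uhrf1 KO (2.49 and 2.52%), the middle CpG and offset 45 in H730A (7.96 and 8.23%), the end CpG and offset 0 in F46A (2.64 and 2.63%), and the middle CpG and offset 41 in wtJ1 (32.8 and 33.2%). At the end CpG in wtJ1 the libraries overlapped with neither offset 95 (30.0%) nor offset 78 (25.0%).

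**Figure D3:**
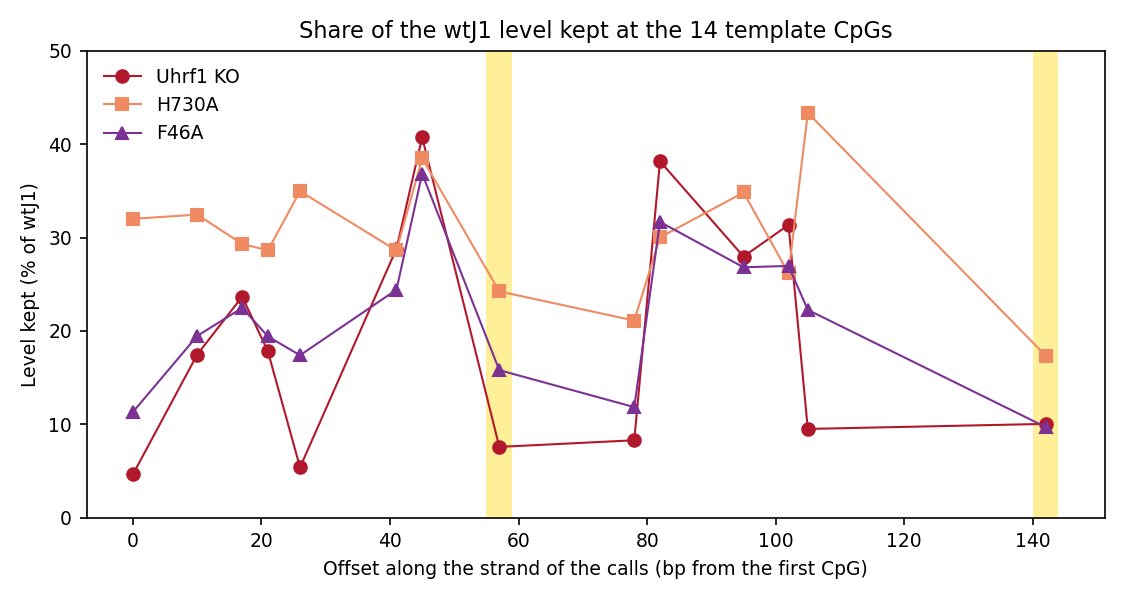
Share of the wtJ1 level (%) kept at each of the 14 template CpGs against the offset in bp along the strand of the calls, for Uhrf1 KO (circles), H730A (squares) and F46A (triangles); points are ratios of mean levels, and the yellow bands mark the isolated CpGs. At the middle CpG the shares are 7.59% in Uhrf1 KO, 24.2% in H730A cells and 15.8% in F46A, and at the end CpG they are 10.1, 17.4 and 9.72%.

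The pooled values rest on many LINE1 copies, and the loss was found at nearly all of them. Because these copies are nearly identical and the placement of reads that match several of them is not given in the sources here, assignment to a single copy is uncertain. A quasi-binomial test per site, with Benjamini-Hochberg adjustment at 0.05 over all 10185 sites, called 489 of 491 sites at the middle CpG and 516 of 516 at the end CpG lower in Uhrf1 KO than in wtJ1, where 94.2% of all tested sites were lower. In H730A 486 and 509 sites were lower, against 91.4% of all sites, and in F46A 489 and 516 were lower, against 94.5% of all sites. No isolated CpG was called higher than wtJ1 in any of these 3 comparisons (also 0 at an unadjusted p under 0.05), where 0% of all sites were higher in Uhrf1 KO and 0.0196% in H730A cells and in F46A. The median difference over sites was -30.6 points at the middle CpG and -24.3 points at the end CpG in Uhrf1 KO, and -19.96 points over all tested sites.

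In H730A against Uhrf1 KO the same test called 219 of 491 sites higher at the middle CpG and 37 of 516 at the end CpG, beside 21.4% of all tested sites. Without H730A replicate 3 these counts were 139 and 13. No site was lower at the middle CpG and 2 were lower at the end CpG, beside 0.785% of all sites. The level was higher in H730A at 479 sites and lower at 11 for the middle CpG, and higher at 442 and lower at 72 for the end CpG, with medians of 5.37 and 1.97 points and of 2.21 points over all tested sites.

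In F46A against Uhrf1 KO 0 isolated CpGs were called in either direction, as were 0% of all sites. At an unadjusted p under 0.05, 168 sites were higher and 0 lower at the middle CpG, while 6 were higher and 15 lower at the end CpG. The share of all tested sites at this unadjusted p is not given, so these counts alone do not set the middle CpG apart. limma on logit site levels also called 0 isolated CpGs, and Fisher's exact test on summed calls, which holds no spread between libraries, called 89 higher at the middle CpG. The pooled F46A level exceeded that of Uhrf1 KO at 451 middle CpGs and was below it at 40, whereas at the end CpG it was higher at 256 and lower at 259. In F46A against H730A, 3 sites at the middle CpG and 7 at the end CpG were lower (2.39% of all sites) and 0 were higher (0.00982% of all sites). Leaving out any 1 of the 8 libraries brought these 2 counts to 0. The median dispersion of the site model was 1 in every comparison but this one (1.04), so p-values of single sites rest largely on counting error.

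Copies differed less from each other in the mutants than in wtJ1 in absolute terms. At the middle CpG the pooled level per site ranged from 0 to 8.43% in Uhrf1 KO, from 0 to 26.9% in H730A cells and from 0.5 to 13.1% in F46A, against 0.532 to 66.8% in wtJ1. The medians were 2.51, 7.89, 5.13 and 33.2% in the same order. A level over 10% was reached at 0 sites in Uhrf1 KO, 113 in H730A cells and 7 in F46A, against 489 in wtJ1. At the end CpG the medians were 2.68% in Uhrf1 KO, 4.61% in H730A, 2.61% in F46A and 27.3% in wtJ1, and 0, 14, 0 and 514 sites were over 10%.

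**Figure D4:**
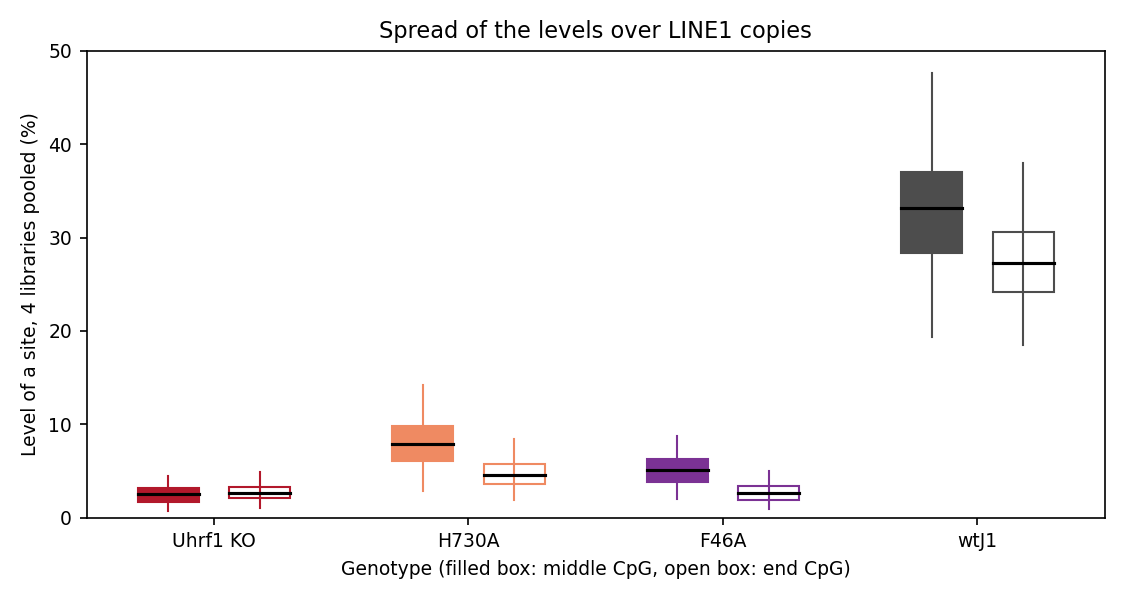
Spread of the pooled level (%) over LINE1 copies, by genotype, for the 491 sites at the middle CpG (filled boxes) and the 516 sites at the end CpG (open boxes). Boxes span the quartiles, black lines are medians and whiskers run from the 5th to the 95th percentile of sites; the medians at the middle CpG are 2.51% in Uhrf1 KO, 7.89% in H730A, 5.13% in F46A and 33.2% in wtJ1.

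Within the 491 runs that hold both CpGs, the middle CpG was the more methylated one in 215 runs in Uhrf1 KO, 421 in H730A cells and 422 in F46A, against 402 in wtJ1. Over these runs the levels at the middle and end CpGs were correlated with Pearson's r of 0.03 in Uhrf1 KO, 0.48 in H730A cells and 0.17 in F46A, against 0.63 in wtJ1. The 2 CpGs of a run are read largely by the same reads, and the lower levels carry more counting error, so these coefficients are descriptions only.

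The deepest run, with reads on the + strand of chromosome 2, illustrates the pattern at one mapped location. In mm10 coordinates its isolated CpGs are chr2:42083647 (the middle CpG) and chr2:42083732 (the end CpG), both within the span of Lrp1b, which encodes a member of the LDL receptor family. The middle CpG was at 2.82, 2.36, 2.54 and 2.11% in Uhrf1 KO, 7.08, 7.84, 9.49 and 6.26% in H730A cells and 5.43, 4.44, 3.41 and 7.08% in F46A, against 31.5, 31.1, 32.9 and 31.7% in wtJ1. The end CpG was at 2.50, 3.18, 2.59 and 2.57% in Uhrf1 KO, 4.45, 3.59, 6.59 and 4.01% in H730A cells and 2.76, 3.05, 2.96 and 2.84% in F46A, against 27.4, 26.4, 27.7 and 27.6% in wtJ1. Each library had between 1754 and 2360 calls at these CpGs, far above the medians of 62 to 79 per middle CpG and 58 to 73 per end CpG. Whether reads of other copies were placed at this location was not tested. The H730A level was above the knockout at the middle CpG (5.22 points, adjusted p = 0.000127) and at the end CpG (1.98 points, adjusted p = 0.0168). The F46A level did not pass over all sites at the middle CpG (2.72 points, adjusted p = 0.101) or at the end CpG (0.187 points, adjusted p = 0.816).

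The next 2 runs by depth at the middle CpG differed from each other. At chr1:18538081, outside protein-coding and lncRNA genes, the middle CpG averaged 1.08% ± 0.255 in Uhrf1 KO, 4.95% ± 1.84 in H730A cells and 2.61% ± 1.02 in F46A (SD, n = 4 each), against 22.6% ± 1.34 in wtJ1 (SD, n = 2). Its partner at chr1:18538166 was at 2.64% ± 0.726 in Uhrf1 KO, 4.79% ± 2.24 in H730A cells and 3.06% ± 1.11 in F46A (SD, n = 4 each), against 25.5% ± 0.225 in wtJ1 (SD, n = 2), so that here the end CpG was the higher of the pair in wtJ1. At chr4:122712968 the middle CpG averaged 2.93% ± 0.361 in Uhrf1 KO, 9.01% ± 1.51 in H730A cells and 6.37% ± 0.974 in F46A (SD, n = 4 each), against 33.7% ± 0.936 in wtJ1 (SD, n = 2). All 3 mutant genotypes were lower than wtJ1 at these CpGs in the quasi-binomial test, with adjusted p of at most 1.02e-06 at chr1:18538081 and 6.46e-08 at chr4:122712968.

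The sites with the widest gap to wtJ1 among called sites were, by that choice, highly methylated in wtJ1, and their values are given as a description. At chr1:150233194, outside protein-coding and lncRNA genes, the middle CpG was at 10.0, 3.51, 4.76 and 8.00% in Uhrf1 KO, 22.8, 19.0, 39.3 and 25.4% in H730A cells and 13.1, 15.2, 5.17 and 5.88% in F46A, against 63.5, 64.9, 73.4 and 65.2% in wtJ1. The Uhrf1 KO difference from wtJ1 was -60.6 points (adjusted p = 3.39e-07), and H730A exceeded Uhrf1 KO by 20.5 points (adjusted p = 0.00447). At chr2:23940135, also outside such genes, the middle CpG was at 4.35, 6.52, 0 and 4.05% in Uhrf1 KO, an average of 26.8% ± 6.61 in H730A cells (SD, n = 4) and 11.8, 9.26, 1.96 and 9.43% in F46A, against 67.5, 48.0, 77.1 and 62.0% in wtJ1. Over the 4 Uhrf1 KO libraries 9 of 236 calls at this site were methylated. H730A exceeded the knockout by 23.1 points (adjusted p = 0.000983) and F46A was below H730A by 18.8 points (difference -18.8, adjusted p = 0.0361).

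At chr14:22835631, within the span of Lrmda, the middle CpG averaged 2.16% ± 4.31 in Uhrf1 KO, 12.2% ± 7.40 in H730A cells and 8.19% ± 2.61 in F46A (SD, n = 4 each), against 61.0% ± 6.20 in wtJ1 (SD, n = 2). Its partner at chr14:22835546 averaged 5.24% ± 2.82 in Uhrf1 KO, 8.89% ± 5.37 in H730A cells and 1.34% ± 2.68 in F46A (SD, n = 4 each), against 51.8% ± 1.00 in wtJ1 (SD, n = 2). Between the mutants neither CpG passed the test (adjusted p from 0.0994 to 0.579).

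Some copies were named for the size of a difference between mutants, and their values are given as a description. H730A was called above Uhrf1 KO at 37 of 516 end CpGs, beside 21.4% of all tested sites, and at 13 without H730A replicate 3. At chr2:23939275 that CpG was at 4.35, 2.17, 2.86 and 5.66% in Uhrf1 KO, 21.1, 18.5, 16.3 and 15.5% in H730A cells and 3.39, 2.27, 0 and 4.84% in F46A, against 41.9, 33.3, 38.3 and 47.6% in wtJ1. H730A was 13.9 points above Uhrf1 KO (adjusted p = 0.00797), and F46A was below H730A (-14.7 points, adjusted p = 0.0348). At chr1:158332427, within the span of Brinp2, the end CpG was at 0.838% ± 1.00 in Uhrf1 KO, 11.6% ± 4.80 in H730A cells and 3.15% ± 3.53 in F46A (SD, n = 4 each), against 29.3% ± 8.79 in wtJ1 (SD, n = 2), and H730A exceeded Uhrf1 KO by 10.98 points (adjusted p = 0.00415). F46A was also lower than H730A at the middle CpG of chr12:102412347, within the span of Lgmn, with 3.26% ± 0.500 in F46A and 14.4% ± 5.39 in H730A (SD, n = 4 each; -10.7 points, adjusted p = 0.0361). No call of F46A below H730A at an isolated CpG was left once any library was left out.

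The exceptions were few. Most were in H730A, where 486 of 491 middle CpGs and 509 of 516 end CpGs were called lower than wtJ1. Those found in H730A alone are not described here. The 2 middle CpGs that were not called lower than wtJ1 in Uhrf1 KO or in F46A were chr10:12386068, within the span of Utrn, and chr13:62420087, and both were chosen after their values were seen. At chr10:12386068 the methylated calls numbered 0 of 229 in Uhrf1 KO (which allows a level of up to 1.31%), 0 of 213 in H730A (up to 1.41%) and 1 of 200 in F46A, against 1 of 188 in wtJ1. At chr13:62420087 the level averaged 1.23% ± 1.67 in Uhrf1 KO, 0.325% ± 0.649 in H730A cells and 1.77% ± 1.33 in F46A (SD, n = 4 each), against 2.05% ± 0.881 in wtJ1 (SD, n = 2). These copies thus had almost no methylation at the middle CpG in wtJ1. Their partners at the end CpG were methylated in wtJ1, with 20.6% ± 4.28 at chr10:12386153 and 49.3% ± 8.90 at chr13:62420172 (SD, n = 2 each), and fell in all 3 mutant genotypes (adjusted p from 1.86e-06 to 0.000686). Whether the CpG is intact in the genome of these cells at those copies was not tested.

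The 2 sites called lower in H730A than in Uhrf1 KO, both at the end CpG and also chosen after their values were seen, had few methylated calls. At chr13:91815449 the H730A libraries held 0 of 252 methylated calls (up to 1.19%), against 7 of 229 in Uhrf1 KO (adjusted p = 0.0413). In the other, within the span of the lncRNA gene Gm29677, they held 0 of 102 (up to 2.94%), against 9 of 118 in Uhrf1 KO (adjusted p = 0.0340).

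The shares kept were similar across strands and locations. At the middle CpG the + strand sites kept 7.66% of the wtJ1 level in Uhrf1 KO, 24.7% in H730A cells and 16.0% in F46A, and the - strand sites kept 7.51, 23.7 and 15.5%. The shares were 7.52, 25.2 and 16.4% on the X chromosome and 7.60, 24.1 and 15.7% on autosomes, and 7.60, 24.03 and 15.5% inside genes against 7.59, 24.3 and 16.0% outside them. At the end CpG the shares on the X chromosome were 10.0% in Uhrf1 KO, 16.6% in H730A cells and 9.44% in F46A, and on autosomes 10.1, 17.5 and 9.76%. These splits are given without tests.

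At the middle CpG the level in wild-type cells was related to what the mutants held. Middle CpGs were divided into 4 classes of 122 or 123 sites by their level in wtJ1 replicates 1 and 2, and read against wtJ1 replicates 3 and 4. In order of rising class the Uhrf1 KO level was 1.90, 2.42, 2.73 and 2.98%, the H730A level 5.72, 7.70, 8.27 and 10.8% and the F46A level 3.92, 5.02, 5.60 and 6.41%, against 24.7, 33.1, 34.7 and 41.0% in wtJ1. The share kept therefore stayed within 7.27 to 7.86% in Uhrf1 KO, 23.2 to 26.4% in H730A cells and 15.2 to 16.1% in F46A. At the end CpG the classes gave 2.70, 2.65, 2.76 and 2.86% in Uhrf1 KO, 4.06, 4.51, 4.79 and 5.94% in H730A cells and 2.46, 2.69, 2.56 and 2.98% in F46A, against 24.3, 26.4, 27.9 and 32.9% in wtJ1. At that CpG the share kept in Uhrf1 KO was 11.1% in the lowest class and 8.70% in the highest. The Uhrf1 KO libraries of these classes overlapped in level (2.61 to 2.79% in the lowest, 2.56 to 3.14% in the highest), so a rise was not clear there. The H730A level at the end CpG rose with each class, while the F46A level did not rise at every step.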

How the data were processed

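The files hold, per CpG and library, the count of methylated calls, the count of all calls and a methylation fraction, and these counts were used as deposited by the authors. The fraction column deposited by the authors equals the methylated count divided by the total and was not used for tests. Per the submitters' processing notes, which give no roles, Trim Galore 0.3.1, BSMAP 2.90, methylKit and the build mm10 were used. Placement of reads that match several LINE1 copies is not given in the sources here.

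Runs were kept where the first and last CpG are exactly 142 bp apart, so the end CpG is at offset 142. Members and lists were chosen with earlier results of these data known. The level of a library at an offset is the sum of methylated calls over the sum of calls, in percent. Groups were taken from the labels and compared by exact two-sided permutation tests over libraries, with 95% intervals by inversion and Benjamini-Hochberg adjustment over the 14 template offsets of a comparison. The pair ratio was adjusted over the 3 comparisons with wtJ1 and over the 3 between mutants, and a call means an adjusted p of at most 0.05. Sites were tested by a quasi-binomial model (R 4.3.3, limma 3.58.1 squeezeVar, dispersion of at least 1) over all 10185 sites. The model was tried on simulated counts without spread between libraries, so that trial does not cover the spread seen in H730A and F46A. Limits for a count of 0 use 3 counts and, like the intervals of counts, cover counting error only. Host genes come from the RefSeq table of GRCm38.p6, by span. Sites were named by depth (3 per offset), by difference among called sites with at least 30 calls per library and no overlap between groups (up to 3 per offset and comparison, 1 per run), and as their partners, with exceptions marked. Of these sites the text describes the leading ones. Alternatives were coverage minimums of 30 and 100 calls, unweighted means, subsets of runs and strands, gaps of 100 and 500 bp, thinning to 10 calls, percentage points, limma on logit levels, Fisher's exact test, 1 fit of all 16 libraries, a replicate block, each library left out and, added after seeing the data, wtJ1 as 2 samples.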

Additional observations from a re-analysis of the deposited data

Results flagged for a closer look

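In a screen of 20 sets of 4 libraries for a library far from the others, 1 was marked, and chance marks about 1 in 20. In H730A the log2 ratio of the end CpG to the other 13 template offsets was -0.505 in replicate 3, against -0.86, -0.88 and -0.88 in replicates 1, 2 and 4, a gap of 0.936 of the whole range. The same library had the highest level of its genotype at the end CpG, 6.42%, and at the middle CpG, 10.3%. Its part in the comparison of H730A with Uhrf1 KO at the end CpG is given beside those values. Without it the end CpG in H730A differed from wtJ1 by -22.99 points in level and by -0.955 in the log2 ratio to the others.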

How the results depend on the processing

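Against wtJ1, the levels at both isolated CpGs kept their direction and their call under every alternative with a test. With 1 library left out, or with wtJ1 as 2 samples, the exact test cannot pass 0.05, and these levels kept their direction. Passing 0.05 over 14 offsets needs at least 8 of them at the smallest p, so calls between mutants and on the ratios to the other offsets can change with 1 offset. The ratio of F46A to wtJ1 missed the threshold at -0.50 and -1.21 (30 calls, the middle and end CpGs), -0.49 and -1.16 (unweighted), -0.50 and -1.19 (runs with both CpGs), -0.51 and -1.20 (+ strand) and -0.43 and -1.26 (thinned). When thinned, H730A against wtJ1 (-0.35 and -0.83), F46A against Uhrf1 KO at the middle CpG (1.02) and H730A against Uhrf1 KO at the end CpG (0.25) missed it as well, and the last also did with 100 calls (0.21) and limma (0.17). In percentage points that last ratio was -0.727 and that of F46A against H730A at the end CpG was 0.132, and the pair turned to -2.46 in H730A and -3.16 in F46A against wtJ1 and to -0.696 in F46A against H730A. The cause was not tested.

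F46A against Uhrf1 KO at the middle CpG passed with limma (0.737 in natural log odds, with and without the replicate block). F46A against H730A passed at the middle and end CpGs with unweighted means (-3.07 and -2.14 points), without the 10 deepest runs (-2.83 and -2.11), on the - strand (-2.78 and -2.14), with a gap of 100 bp (-2.81 and -2.10), thinned (-2.81 and -2.39) and with limma, with and without the replicate block (-0.47 and -0.59 in natural log odds). Its ratio at the end CpG passed with limma in both forms (-0.34), and its pair ratio passed when thinned (0.35).

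Counts of called sites depended on the test. The shares of all tested sites called under these settings are not given here. The counts below therefore show how far the tests differ, and do not set the isolated CpGs apart from other sites. For H730A above Uhrf1 KO at the end CpG they were 62 of 392 sites with 30 calls, 86 with Fisher's exact test and 13 to 38 with 1 library left out, and at the middle CpG 139 to 200 with 1 left out. H730A below Uhrf1 KO at the end CpG gave 1 with 30 calls, 1 with limma and 0 to 1 with 1 left out. F46A above Uhrf1 KO at the middle CpG gave 39 of 382 with 30 calls, 89 with Fisher's exact test, 26 in 1 fit of all libraries and 0 to 4 with 1 left out. F46A below H730A at the middle and end CpGs gave 29 and 39 with 30 calls, 73 and 72 with Fisher's exact test, 28 and 32 in 1 fit, 0 and 0 with limma and 0 to 0 with 1 left out. Replicate numbers did not pair the libraries (in no comparison did every same-numbered pair correlate over 0.1), and the replicate block brought all counts between mutants to 0. Of 4872 values for 59 named sites, 4547 kept their call, 232 lost it, 93 gained it and 0 reversed.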
